A study of Mus musculus with 22 samples.

Results

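The clustered replication-dependent histone genes are the 70 genes of the table whose symbols begin with Hist1h, Hist2h, Hist3h or Hist4, out of 46882 genes in all. They were chosen by symbol alone and not by any measured value. On mm10, which is the build GRCm38, 56 of them carry the name of the large Hist1 cluster and lie on chromosome 13. Of these, the pseudogene Hist1h2al lies apart from the cluster (chr13:51202727-51203065). Another 10 lie in Hist2 on chromosome 3 and 3 in Hist3 on chromosome 11, and Hist4h4 stands alone on chromosome 6. By the protein they encode, 6 are linker (H1) genes, 20 are H2A, 19 are H2B, 12 are H3 and 13 are H4 genes. The annotation calls 67 of them protein-coding and 3 pseudogenes (Hist1h2aj, Hist1h2al and Hist3h2bb-ps).

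Histone proteins package DNA. An octamer of H2A, H2B, H3 and H4 forms the core of the nucleosome, and a linker histone of the H1 class sits on the DNA between nucleosomes. A dividing cell needs a large supply of them in S phase, and the clustered genes provide it. Their transcripts are unusual among messenger RNAs: they end just after a short stem-loop, which is bound by the stem-loop binding protein (the product of Slbp), and carry no poly(A) tail. Some of the genes can also give a longer, polyadenylated transcript, which is known from differentiated and non-dividing cells. The libraries used here were primed on poly(A), so they report the polyadenylated transcripts of these genes, and the stem-loop transcripts only as far as these carry a stretch that the primer can bind. All levels below are in this sense and are not the total histone mRNA of the cells.

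In all, 16 libraries were compared. MC38 is a mouse colon carcinoma line, sampled before injection (day 0, n = 2, with no statement in the labels that these were separate cultures). Tumors came from MC38 cells placed under the skin of 8- to 12-week-old mice. The hosts were wild-type C57BL/6N mice, with tumors taken at day 23 (n = 3) and day 46 (n = 3), and RAG1-/- mice of the strain B6.129S7-Rag1tm1Mom/J, with tumors taken at day 13 (n = 3) and day 23 (n = 3). RAG1-/- mice make no mature T or B cells and keep their other cells, such as macrophages and natural killer cells. Normal skin was from wild-type mice of day 23 (n = 2). Each value is a normalized count, that is, reads on a gene divided by the size factor of the library. The read sits at the 3′ end of a transcript whatever its length, so levels of different genes were compared as counts, with no division by length.

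Libraries held 5589151 to 26134241 reads on genes, and 3 reads, taken as the smallest number that can be told from 0, corresponded to 1.33 to 6.38 normalized counts. Such floors cover counting error only. Rag1 had 1 to 12 reads in each of the 6 tumors labelled RAG1-/- and 1 read in 1 of the 6 wild-type tumors, but a read at the 3′ end of the gene does not show whether the deleted coding stretch is present, so this checks no label. Igkc, an antibody light chain gene, had 32 to 387 reads in the wild-type tumors and 0 to 4 in the tumors labelled RAG1-/-. Of the markers of carcinoma epithelium (Epcam, Cdh1, Krt8, Krt18 and Krt19), Krt18 and Krt19 had no read in MC38 and the sum over the list was 4.28 to 5.87 normalized counts there, against 4664 to 6174 in skin. In tissue, fewer cells of a type and less RNA per cell cannot be told apart.

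The stem-loop could be read from the annotated transcripts (GENCODE M21, GRCm38). A 16-base hairpin of the canonical form lay within 21 to 58 bases after the stop codon in 45 of the 70 genes (median 31 bases). The most common version was shared by 25 genes, among them Hist1h1c, Hist3h2a and Hist1h2ae. The hairpin shown for Hist1h4d was found in 7 genes, all of them H4, and that of Hist1h4i in 2 H4 genes (Hist1h4i and Hist2h4). The lines below show the hairpins of the members that the results turn on, 5′ to 3′, with the hairpin in capitals and the neighboring bases in lower case.
Hist1h4i (chr13:22040966-22040981, minus strand): taaaGGCCCTTTTTAGGGCCacca
Hist1h4b (chr13:23757366-23757381, plus strand): aaaaGGTCCTTTTCAGGACCactc
Hist1h4d (chr13:23581950-23581965, plus strand): caaaGGCCCTTTTCAGGGCCacta
Hist1h1c (chr13:23739512-23739527, plus strand): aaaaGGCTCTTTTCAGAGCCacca
Hist3h2a (chr11:58955172-58955187, plus strand): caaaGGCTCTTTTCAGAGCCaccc
Hist1h2ae (chr13:23570668-23570683, minus strand): caaaGGCTCTTTTCAGAGCCattc
Hist1h3c (chr13:23745047-23745062, minus strand): aaaaGGCTCTTTTAAGAGCCacct
Hist2h2ac (chr3:96220418-96220433, minus strand): aaaaGGCTCTTTTTAGAGCCacca
Hist2h3c2 (chr3:96238485-96238500, minus strand): caaaGGCTCTTTTCAGAGCCacca

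What the annotation places after the hairpin differed widely. A transcript that stops at the hairpin is the replication-type message, and one that runs on can reach a poly(A) signal. The annotated transcript ran on for 3 to 4884 bases past the hairpin (median 108). It ran on for 330 bases in Hist1h4i, 840 in Hist1h1c, 1643 in Hist3h2a, 770 in Hist1h4d, 151 in Hist1h2ae and 377 in Hist2h3c2, against 28 in Hist1h4b, 57 in Hist2h2ac and 74 in Hist1h3c. Hist1h2bc (chr13:23684199-23692908, plus strand) was annotated with 1 transcript only, spliced from 2 exons. It had 742 bases after the stop codon, no hairpin found and no poly(A) signal in its last 40 bases. Hist2h2be (chr3:96221119-96223738, plus strand) had 2192 bases after the stop codon, no hairpin found and a poly(A) signal near its end. For 13 genes, including Hist1h1b and Hist1h2an, the annotation ended at the stop codon, so a hairpin or signal could not be looked for. A poly(A) signal (AATAAA or ATTAAA) lay in the last 40 bases of 17 of the 70 annotated transcripts.

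The polyadenylated reads fell on a small part of the family. Hist1h2bc, an H2B gene, took 27.0% of all reads on the 70 genes in the 16 libraries together, and Hist1h4i, an H4 gene, took 18.3%. With Hist1h1c, a linker histone gene, and Hist3h2a, the H2A gene of the Hist3 cluster, they made up 70.7%. Only these 4 and Hist1h2ae, another H2A gene, averaged at least 100 normalized counts across all 16 libraries, and 54 genes had a mean under 20. In all, 43 genes had a mean of at least 5, 32 had a read in every library, and 5 had none in any library (Hist1h2ba, Hist1h2bq, Hist1h2br, Hist2h2aa1 and Hist2h3c1). Hist1h2ba and Hist1h1t, both known from the testis, and Hist1h2aa stayed at a summed 0 to 4.03 normalized counts in every library.

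**Figure D1:**
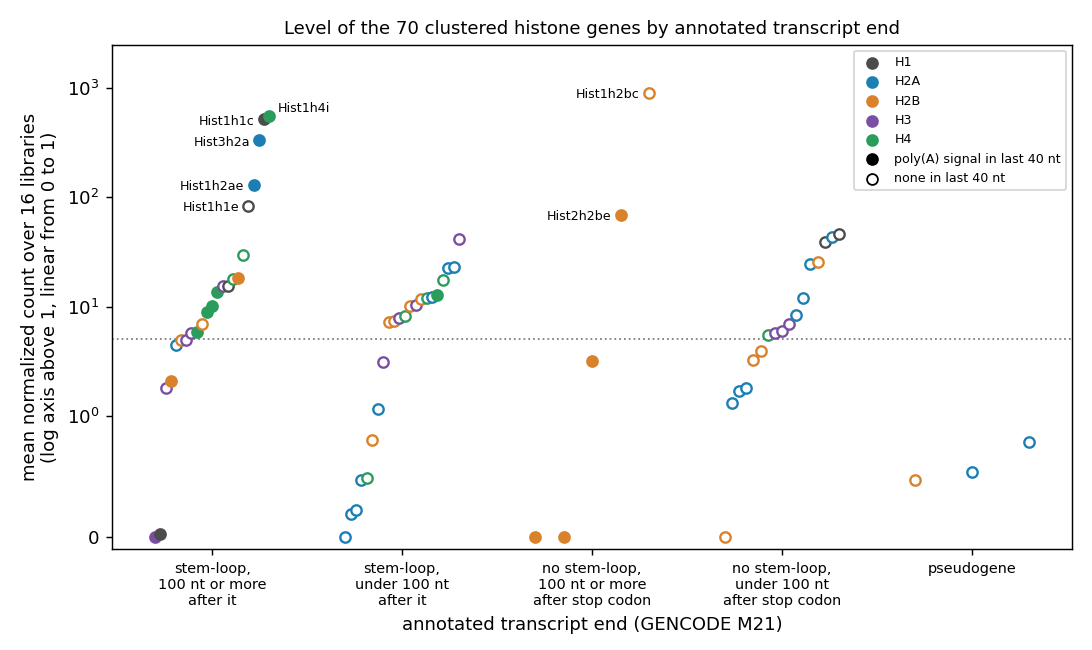
Mean normalized count over the 16 libraries (vertical axis, logarithmic above 1 and linear from 0 to 1) of each of the 70 clustered histone genes, placed by what the annotation shows at the transcript end (horizontal axis) and colored by histone class. Filled circles have a poly(A) signal in the last 40 bases, the dotted line is at 5, and the 7 labelled genes stand in the columns with 100 or more bases after the hairpin or stop codon.

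Most reads fell on genes with a long annotated end, as the plot of level by annotated transcript end shows. The 23 genes with a hairpin and at least 100 bases after it held 55.9% of the reads on the family, and the 5 genes without a hairpin but with at least 100 bases after the stop codon held 29.4%, nearly all from Hist1h2bc. The 22 genes whose annotation ended under 100 bases past the hairpin held 6.89%, the 17 coding genes annotated with neither hairpin nor 100 bases held 7.73%, and the 3 pseudogenes 0.0691%. The median level had another order and was 10.1 normalized counts in the first group, 3.19 in the second, 8.04 in the third and 5.94 in the fourth. The reads of the first 2 groups were thus concentrated in a few genes. The 17 genes with a poly(A) signal in the last 40 bases took 52.6% of the reads on the family. These are counts over annotated ends and carry no test, and where the annotation is short the true end is not known from these files.

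Genes of the family are near copies of each other, which limits what a single count means. In 52 of the 70 genes, part of the last 300 bases of the transcript shared a run of 50 bases with another gene, in 11 every run was shared, and in 18 none was. The authors kept the primary alignment of a read that mapped to several places, so a read may have been placed on the wrong copy. None of the runs of Hist1h4i, Hist1h1c, Hist3h2a, Hist2h2be, Hist1h1b, Hist2h3c2 or Hist1h4d was shared, and 3.19% were in Hist1h2bc and 21.9% in Hist1h2ae. Values of Hist1h2an (80.5% shared), Hist1h2bl (83.3%), Hist1h4b (66.5%), Hist1h2bk (62.5%), Hist1h2bb (60.2%) and Hist1h2bj are uncertain in this respect. Hist1h1e shared its whole end with a gene annotated over it, Hist1h2be, on the same strand, and Hist3h2a overlapped Trim17. In 23 genes another gene lay on the opposite strand, and the strand setting of the counting is not given in the sources used here.

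**Figure D2:**
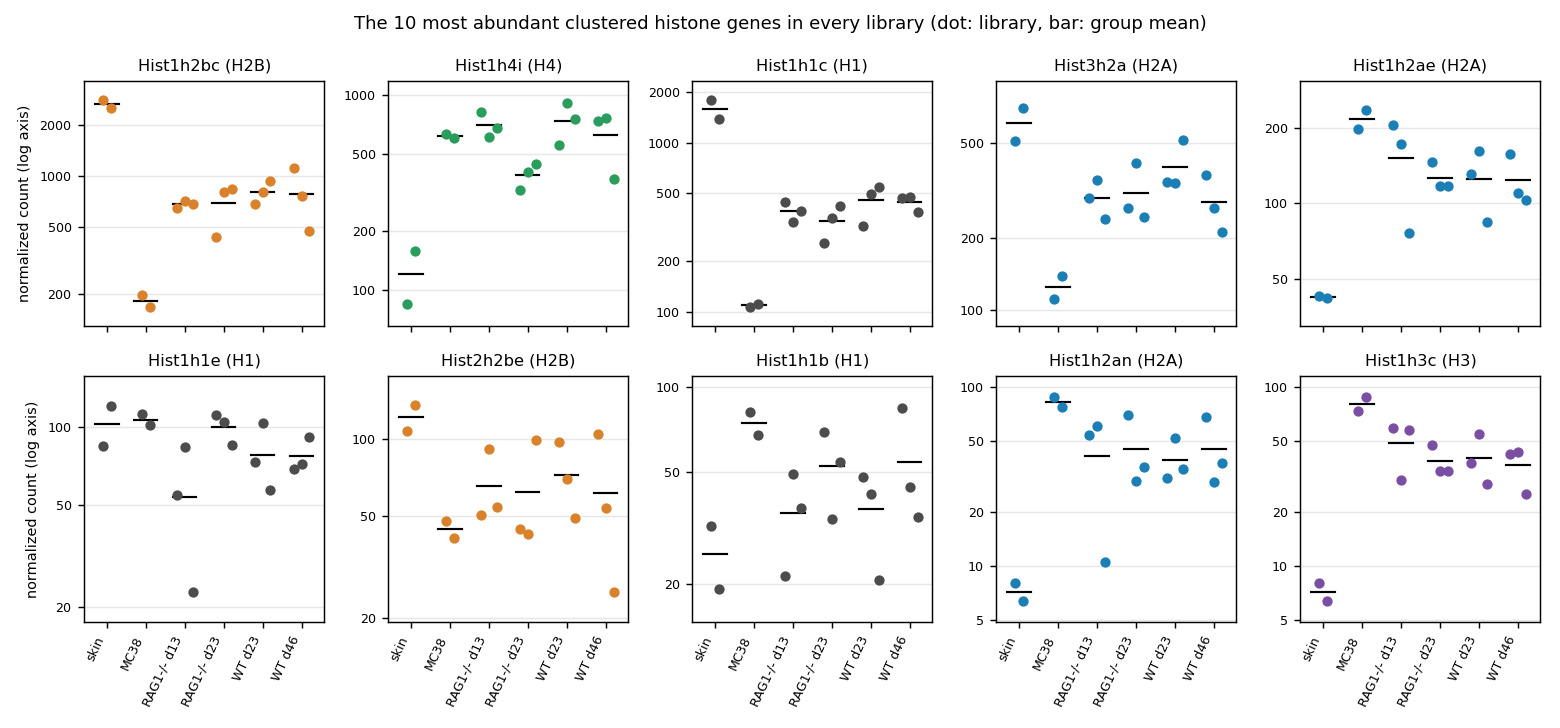
Normalized counts (logarithmic vertical axis, range set for each panel) of the 10 most abundant clustered histone genes in skin, MC38 cells and the 4 tumor groups. Each dot is a library and each bar a group mean, and skin is the highest group for Hist1h2bc, Hist1h1c, Hist3h2a and Hist2h2be and the lowest for Hist1h4i, Hist1h2ae, Hist1h1b, Hist1h2an and Hist1h3c.

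Skin and MC38 cells used different members. Hist1h2bc stood at 2802 and 2511 normalized counts in the skin libraries and at 197 and 166 in MC38. The tumors lay between, at 646, 712 and 677 for RAG1-/- day 13, 433, 800.1 and 832 for RAG1-/- day 23, 684, 798 and 929 for wild-type day 23 and 1115, 763 and 469 for wild-type day 46. All 12 tumors were thus above both MC38 libraries and below both skin libraries.

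Hist1h1c, whose product is one of the main somatic linker histones, had the same order. Its normalized counts were 1780.3 and 1379 in skin and 106 and 111 in MC38. RAG1-/- tumors had 446, 340.2 and 396 at day 13 and 254, 357 and 421 at day 23, and wild-type tumors had 319, 495 and 549.8 at day 23 and 473, 478 and 387 at day 46. Again no tumor overlapped with skin or with MC38.

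Hist3h2a was also high in skin, with 509 and 699 normalized counts against 111 and 139 in MC38. In RAG1-/- tumors it was at 295, 350.2 and 240.1 (day 13) and 268, 413 and 245 (day 23), and in wild-type tumors at 342, 339 and 513 (day 23) and 367, 269 and 213 (day 46). The tumors were all above MC38, and the highest of them reached the lower skin library.

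Hist2h2be, an H2B gene of the Hist2 cluster, was measured at 107 and 135 in skin and 47.9 and 41.1 in MC38. Tumors ran from below MC38 to just under skin, with 50.3, 91.2 and 54.3 (RAG1-/- day 13), 44.5, 42.6 and 99.0 (RAG1-/- day 23), 97.4, 69.9 and 49.1 (wild-type day 23) and 105, 53.7 and 25.1 (wild-type day 46). No tumor reached the skin values.

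The opposite pattern was led by Hist1h4i. It had 84.4 and 158 normalized counts in skin and 637 and 603 in MC38. Tumors had 826, 612 and 678 (RAG1-/- day 13), 327, 402 and 443 (RAG1-/- day 23), 553, 911 and 759 (wild-type day 23) and 737, 765 and 372 (wild-type day 46). Here the tumors were on the side of MC38, with every one above skin.

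Hist1h2ae followed it at a lower level, with 42.9 and 42.1 in skin and 197 and 236 in MC38. The tumors were at 205, 172 and 76.2 (RAG1-/- day 13), 145, 117 and 117 (RAG1-/- day 23), 131, 161 and 84.0 (wild-type day 23) and 157, 110.1 and 103 (wild-type day 46). They lay above skin, and 1 of them reached MC38.

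Hist1h2an and Hist1h3c, an H2A and an H3 gene, were low in skin, each at 8.04 and 6.37. In MC38 they had 88.1 and 77.2, and 72.7 and 88.0. Hist1h2an was at 53.5, 60.0 and 10.5, then 69.4, 29.8 and 35.8 in RAG1-/- tumors of day 13 and day 23 and at 31.0, 52.0 and 34.9, then 67.4, 29.5 and 37.7 in wild-type tumors of day 23 and day 46. For Hist1h3c the same groups gave 58.8, 30.0 and 57.2, then 47.1, 34.0 and 34.0, then 37.6, 54.6 and 28.5, then 42.0, 43.0 and 25.1. Both genes were thus above skin and below MC38 in all 12 tumors.

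The linker genes Hist1h1e and Hist1h1b differed less. Hist1h1e had 84.4 and 121 in skin and 112 and 102 in MC38, and 22.9 to 111 in the tumors, so that the groups overlapped. Hist1h1b had 32.1 and 19.1 in skin, 81.3 and 67.5 in MC38 and 20.6 to 84.1 in the tumors, where it spread from the level of skin to that of MC38.

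**Figure D3:**
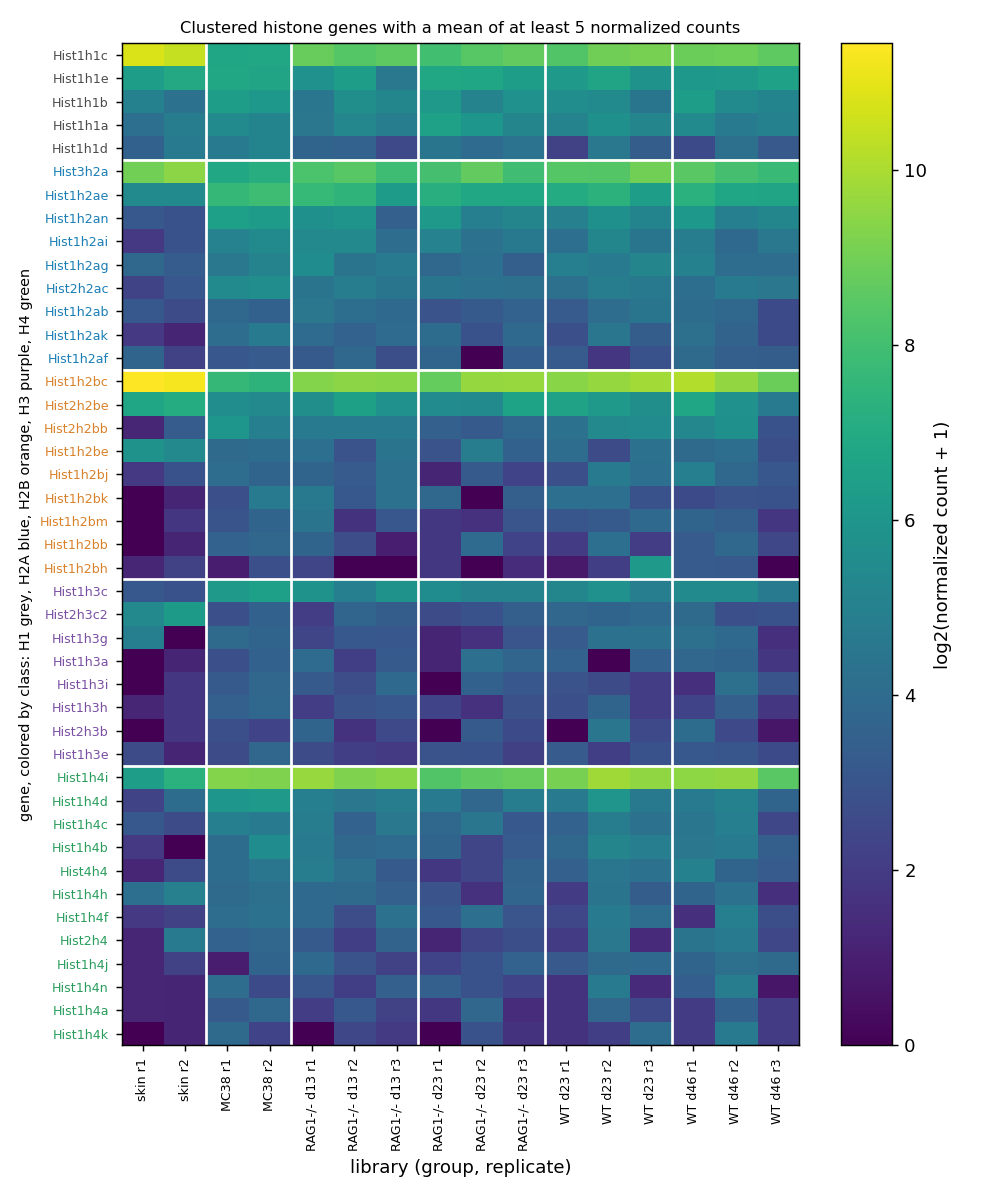
Values as log2(normalized count + 1), shown by color, for the 43 clustered histone genes with a mean of at least 5 (rows, grouped by histone class) in the 16 libraries (columns, grouped by condition). Most rows are dark in the 2 skin columns and brighter in MC38, while Hist1h2bc, Hist1h1c and Hist3h2a are brightest in skin.

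The family as a whole took its largest share of the reads in skin. Without Hist1h2bc that share was near the share in MC38, though Hist1h2bc was not the only gene with an excess in skin. Hist1h1c took 31.1% and 25.4% of the reads on the family in skin and 4.63% and 4.69% in MC38, while other members were higher in MC38. Reads on the 70 genes were 0.0371% ± 0.00028 (SD, n = 2) of all reads on genes in skin and 0.0207% ± 0.00041 (SD, n = 2) in MC38. In the tumors the share was 0.0270% ± 0.0027 (RAG1-/- day 13), 0.0216% ± 0.0032 (RAG1-/- day 23), 0.0289% ± 0.0036 (wild-type day 23) and 0.0266% ± 0.0069 (wild-type day 46), each as SD with n = 3. Without Hist1h2bc the share was 0.0194% in skin and 0.0191% in MC38, which is within the spread of the libraries. In the tumors it was then 0.0208% ± 0.0028 (RAG1-/- day 13), 0.0157% ± 0.0012 (RAG1-/- day 23), 0.0220% ± 0.0031 (wild-type day 23) and 0.0197% ± 0.0045 (wild-type day 46), each as SD with n = 3, so the mean of skin stayed above that of RAG1-/- day 23 and was below those of the other 3 tumor groups. In normalized counts the 70 genes summed to means of 5580 in skin and 2334 in MC38. Hist1h2bc had means of 2657 and 181 there, so on that scale it did not make up the whole difference. Without the 4 most abundant genes the order of these sums turned over. The other 66 genes summed to 618 ± 86 normalized counts in skin (SD, n = 2) and 1299 ± 83 in MC38 (SD, n = 2), with 813 to 961 as the group means of the tumors. The counts of genes read followed this second order. A mean above 5 normalized counts was reached by 25 genes in skin, 46 in MC38 and 38 to 45 in the tumor groups, and 19 genes had no read in skin against 10 in MC38.

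The balance of the classes shifted with it. In skin, H2B genes took 51.1% of the reads on the family and H1 genes 31.3%, while H4 genes took 3.40% and H3 genes 1.70%. In MC38 the H4 genes came first with 36.3%, followed by H2A with 25.3%, H2B with 16.2%, H1 with 15.4% and H3 with 6.79%. Tumor groups stood between these, with 28.8% to 31.4% for H2B and 19.2% to 28.6% for H4. Nucleosomes hold the 4 core histones in equal numbers, so the polyadenylated reads were not spread over the classes in that proportion in any group.

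**Figure D4:**
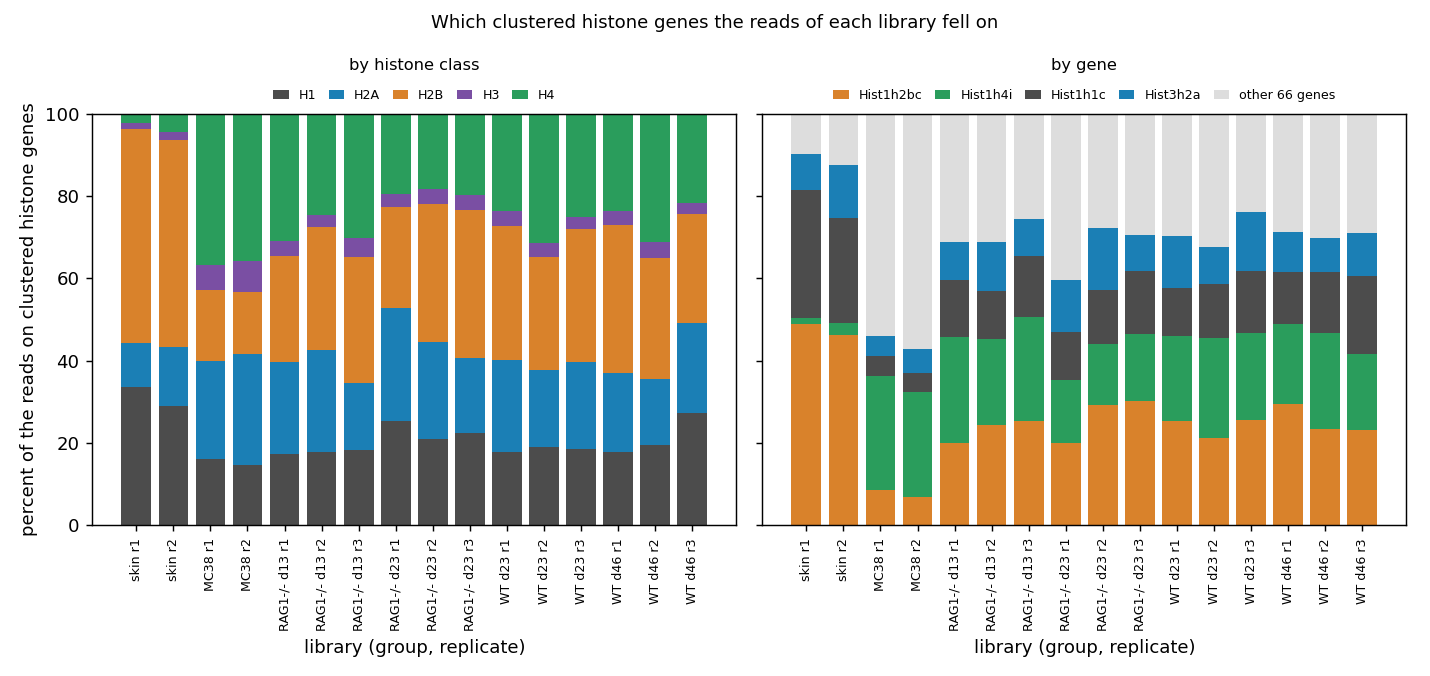
Share of the reads on clustered histone genes (vertical axis, percent) in each of the 16 libraries, split by histone class on the left and by the 4 most abundant genes on the right. The 4 genes take 87.5% to 90.3% of the reads in skin, 42.9% to 45.9% in MC38 and 59.5% to 76.0% in the tumors.

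MC38 cells against skin asks which of the genes differ between the injected line and the normal tissue of the site. Most tested members were higher in the cell line, among them 8 of the 10 H4 genes, while Hist1h2bc went from 2657 ± 206 normalized counts in skin (SD, n = 2) to 181 ± 22 in MC38 (SD, n = 2) and Hist1h1c fell with it. Of the 41 members with a mean of at least 5 in these 4 libraries, 23 were higher in MC38 and 7 lower by limma with an adjusted p under 0.05. Over all genes tested, 20.8% were called higher and 41.2% lower. The median log2 fold change was 2.13 in the tested members and -0.40 in all genes tested. It was 1.95 in the members with Hist1h2bl, which had no read in skin, placed at its lower bound, and 0.75, with 7 of 13 above 0, in the tested members that share no 3′ sequence. Members could pass the filter through MC38 alone, so these 41 are not the whole family. Both MC38 libraries were above both skin libraries in 28 of the 41 members and below both in 7, where 30.6% and 51.4% of all tested genes were so ordered.

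Members lower in MC38 came from several classes. Hist1h2bc had a log2 fold change of -3.87 (SE 0.16, limma adjusted p = 0.000152), and Hist1h1c one of -3.84 (SE 0.19, limma adjusted p = 0.000186). Hist3h2a followed with -2.25 (SE 0.24, limma adjusted p = 0.00136). Hist2h3c2, an H3 gene with 41.5 and 73.9 normalized counts in skin and 5.99 and 10.8 in MC38, differed by -2.64 (SE 0.50, limma adjusted p = 0.00844). The other 3 were H2B genes: Hist1h2be, Hist2h2be and Hist3h2ba. Hist1h2be fell from 56.3 and 40.8 to 14.5 and 15.6, Hist2h2be changed by -1.42 (SE 0.28, limma adjusted p = 0.0102), and Hist3h2ba had 10.7 and 8.92 in skin and 0 and 2.93 in MC38. With 3 reads in MC38 against 15 in skin, the ratio for Hist3h2ba was 0.140 (95% exact counting interval 0.0259 to 0.494, limma adjusted p = 0.0420). Such intervals, here and below, pool the reads of a group and leave out the spread between its libraries, so they are too narrow for the group ratio. All 7 lower members are annotated with at least 100 bases after the hairpin or the stop codon. Such ends were common among the tested members, with 16 that have a hairpin and 2 that do not. Of those 16, 7 were called higher in MC38 and 5 lower.

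Among members higher in MC38, Hist1h4i (log2 fold change 2.41, SE 0.33, limma adjusted p = 0.00291) and Hist1h2ae (2.32, SE 0.25, limma adjusted p = 0.00131) were the most abundant. The largest fold changes came from genes that were nearly silent in skin. Hist1h4b had 2.68 and 0 normalized counts in skin and 15.4 and 46.9 in MC38, and with 2 reads against 66 the ratio was 23.1 (95% exact counting interval 6.13 to 194, limma adjusted p = 0.0155). Hist1h2bl had no read in skin and 8.56 and 15.6 in MC38, which is at least 3.09-fold higher with each skin library put at its floor of 3 reads (limma adjusted p = 0.00279). Hist1h2an and Hist1h3c differed by 3.35 (SE 0.36, limma adjusted p = 0.00132) and 3.31 (SE 0.37, limma adjusted p = 0.00144). Hist2h2bb had 1.34 and 8.92 in skin and 64.2 and 29.3 in MC38 (log2 fold change 3.21, SE 0.85, limma adjusted p = 0.0250).

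Of the 23 members called higher, 7 (of 16 tested) are annotated with a hairpin and at least 100 bases after it. Another 8 (of 13 tested) have a hairpin and less than that, and 8 (of 10 tested) have neither. By class, 8 of 10 H4, 6 of 11 H2B, 5 of 9 H2A, 3 of 6 H3 and 1 of 5 H1 genes were higher. The H2B genes split most, with 4 lower. Of the members named here, Hist1h2bc, Hist1h1c, Hist1h4i, Hist1h2ae, Hist1h2an and Hist1h3c kept their call without any 1 library. Hist3h2a lost it without skin replicate 2 (limma adjusted p = 0.0517), Hist1h2bl and Hist2h3c2 without either skin library, Hist1h1b without any 1 of the 4, Hist2h2be without either skin library or MC38 replicate 2, Hist1h4b likewise, and Hist2h2bb without either skin library or MC38 replicate 1. Hist3h2ba was not called by edgeR, by DESeq2 or by limma without the trend (highest adjusted p 0.252). The count of members higher fell to 11 without skin replicate 1, 14 without skin replicate 2, 10 without MC38 replicate 1 and 6 without MC38 replicate 2, and the count lower fell to 3 without either skin library. Among the 13 tested members that share no 3′ sequence, 4 were higher and 6 lower.

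**Figure D5:**
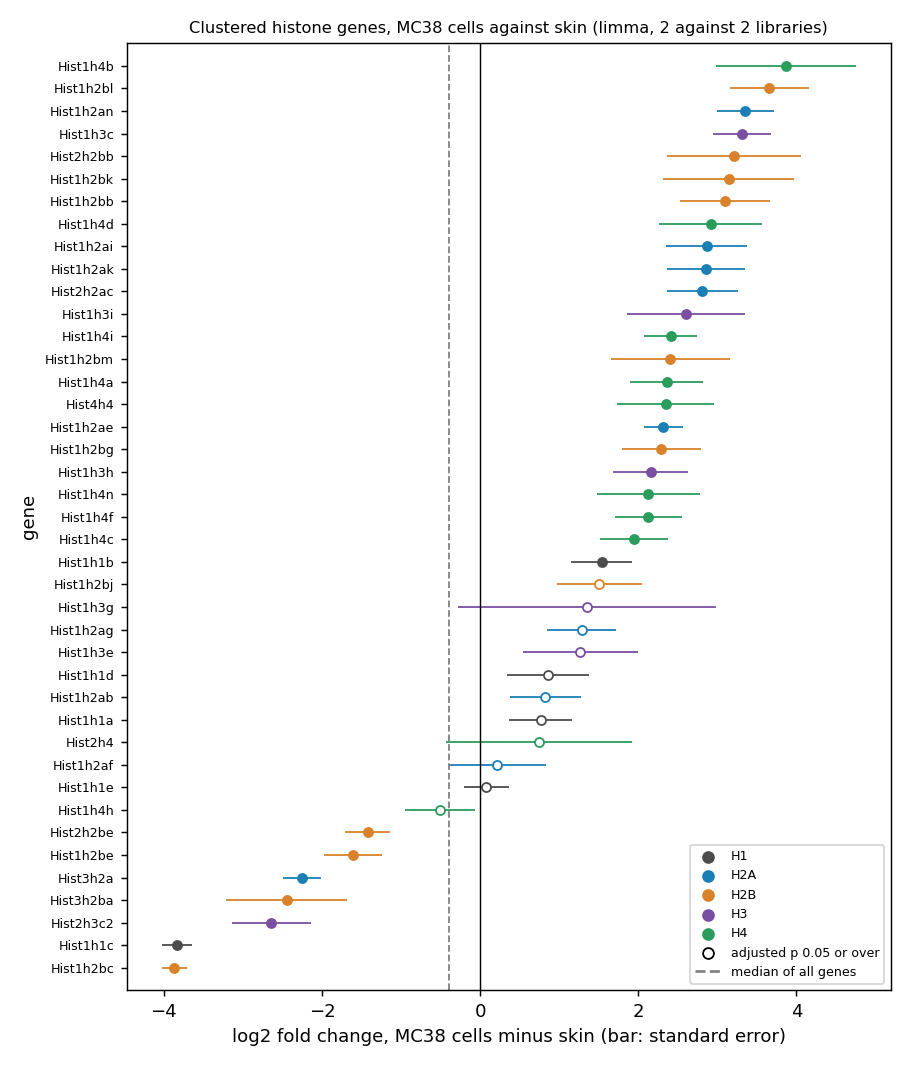
Log2 fold change of MC38 cells minus skin (horizontal axis, with bars for the standard error) from limma for the 41 tested clustered histone genes, ordered by size and colored by class. Filled circles have an adjusted p under 0.05, the dashed line marks the median of all genes at -0.40, and 33 of the 41 genes lie above 0.

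Pairs of histone genes that face away from each other across a short stretch of DNA share their promoter region, and their levels were alike in some pairs and far apart in others. In 14 such pairs at most 500 bases lay between the starts. Hist2h2ac and Hist2h2be start 238 bases apart, yet in MC38 cells Hist2h2ac was higher than in skin (4.02 and 7.65 in skin, 42.8 and 47.9 in MC38, log2 fold change 2.81, SE 0.45, limma adjusted p = 0.00473) and Hist2h2be lower. Hist1h2ac and Hist1h2bc start 250 bases apart and had means of 4.41 and 908 normalized counts over the 16 libraries. Hist1h2ae and Hist1h2bg, 175 bases apart, had means of 131 and 4.95 and nearly the same log2 fold change (2.32 and 2.29). Hist1h2ag and Hist1h2bj, 269 bases apart, were closer in level, with means of 23.0 and 11.8, and had log2 fold changes of 1.29 and 1.51. Hist1h2bf and Hist1h2ad, 184 bases apart, were both nearly silent, with means of 0.802 and 1.16. The stretch between the first 2 pairs is shown here from the RefSeq promoters (GRCm38.p6), read on the minus strand from 250 bases before to 50 after the start of the H2A gene, with capitals where the letters CCAAT occur on either strand, and likewise for TATAAA and for ATTTGCAT.
Hist2h2ac and Hist2h2be (chr3:96220831-96221130): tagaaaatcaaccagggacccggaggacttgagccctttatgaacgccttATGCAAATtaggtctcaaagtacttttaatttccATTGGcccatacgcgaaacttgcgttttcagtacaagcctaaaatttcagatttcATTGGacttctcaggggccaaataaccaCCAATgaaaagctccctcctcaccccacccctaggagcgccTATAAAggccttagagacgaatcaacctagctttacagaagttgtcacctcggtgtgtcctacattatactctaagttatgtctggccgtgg
Hist1h2ac and Hist1h2bc (chr13:23683910-23684209): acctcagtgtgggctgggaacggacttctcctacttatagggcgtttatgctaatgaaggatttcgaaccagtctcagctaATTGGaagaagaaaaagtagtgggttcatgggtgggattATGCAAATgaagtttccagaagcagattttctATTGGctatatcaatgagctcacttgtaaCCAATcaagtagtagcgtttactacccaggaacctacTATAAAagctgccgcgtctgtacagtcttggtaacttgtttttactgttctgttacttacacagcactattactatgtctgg

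Both stretches hold all 3 letter motifs. Of the 70 genes, 61 were matched to a promoter of this length. CCAAT, the letters of the CCAAT box, was found on either strand in 52 of the 61 (85.2%), against 37.4% of 32851 RefSeq promoters, and was in all H1, H2A, H2B and H3 promoters matched but in only 3 of 12 H4 promoters. TATAAA was in 57.4% against 13.6%. The octamer ATTTGCAT, known from H2B promoters, was in 7 of 17 H2A and 6 of 16 H2B promoters and in none of the others (21.3% in all, against 1.74%). Both strands were searched, and no motif contains another. The windows of H2A and H2B genes that face away from each other can overlap, so the same site can be counted for both. This holds for the octamer of Hist1h2aa and Hist1h2ba, of Hist1h2ae and Hist1h2bg, and of Hist1h2ah and Hist1h2bk. A match describes the letters in the window and is no evidence of a bound factor.

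The same test was read for genes that make or handle histone mRNA and protein. Slbp, whose product binds the hairpin, had group means of 55.8 to 77.3 normalized counts and did not pass the test between MC38 and skin (log2 fold change -0.22, SE 0.31, limma adjusted p = 0.575). Nor did Npat (0.29, limma adjusted p = 0.295) or Casp8ap2 (0.24, limma adjusted p = 0.375), whose products belong to the histone locus body. The median of 16 tested genes for 3′ processing and the locus body was 0.58. Of these, 8 were higher in MC38 and none lower, against 20.8% and 41.2% of all genes. They included Cpsf3, the endonuclease of 3′ cleavage (1.67, SE 0.13, limma adjusted p = 0.000535), Cstf2, a subunit of the cleavage stimulation factor (1.01, SE 0.14, limma adjusted p = 0.00303), and Eri1, a nuclease that trims histone mRNA ends (0.94, SE 0.19, limma adjusted p = 0.0109). Rnu7 had no read in any library.

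Genes of S phase and proliferation moved further. Of 23 tested, 21 were higher in MC38 than in skin and none lower, with a median log2 fold change of 1.86, for example Rrm2, a subunit of ribonucleotide reductase (2.95, SE 0.12, limma adjusted p = 0.000145), and Mcm3, of the replicative helicase (2.86, SE 0.17, limma adjusted p = 0.000288). Mki67 was at a mean of 1579 in skin and 1721 in MC38 and did not pass (limma adjusted p = 0.397). Of 12 histone chaperone genes 8 were higher and Daxx was lower. The part of S-phase genes in the difference of the histone genes was not tested. Most histone genes outside the clusters give polyadenylated transcripts also outside S phase. Of 11 tested, 2 were higher (H2afz and Cenpa) and 4 lower (H1f0, H3f3a, H2afj and H2afy2). Over all genes tested in this contrast, 20.8% were higher and 41.2% lower, so these 2 counts lay near the shares of all genes. H1f0, the linker histone gene of differentiated cells, had a mean of 4097 in skin and 732 in MC38 (log2 fold change -2.46, SE 0.21, limma adjusted p = 0.000639). It thus shared its direction with Hist1h1c, and with the 41.2% of all genes called lower.

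Skin is a tissue of many cell types, and their markers moved with these results. Summed keratinocyte markers were 299818 and 300691 normalized counts at the lowest and highest in skin and 308 to 314 in MC38, and 5 of the 6 were above 0 in MC38 (Perp was at 0). Fibroblast markers summed to 352446 to 409524 in skin and 4955 to 5649 in MC38, and skeletal muscle markers to 80299 to 114811 in skin and 11.1 to 33.2 in MC38. The part of these cell types in the histone gene differences was not tested.

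Tumors were compared with the cell line they grew from. In wild-type tumors, 3 of 45 tested members were higher than in MC38 and 3 lower (limma adjusted p under 0.05), where 18.3% of all genes tested were higher and 9.61% lower. The 3 higher were Hist1h1c, Hist1h2bc and Hist3h2a, which are the genes most abundant in skin. Their log2 fold changes were 2.02 (SE 0.22, limma adjusted p = 1.4e-06), 2.08 (SE 0.27, limma adjusted p = 1.1e-05) and 1.39 (SE 0.25, limma adjusted p = 0.00039). The 3 lower were Hist1h4d (-1.31, SE 0.46, limma adjusted p = 0.0413), Hist1h3c (-1.08, SE 0.37, limma adjusted p = 0.0362) and Hist2h2ac (-1.01, SE 0.37, limma adjusted p = 0.0477). The median of the tested members was -0.44, against 0.045 for all genes. It was -0.010 in the 14 tested members that share no 3′ sequence and -0.17 without wild-type day 46 replicate 3.

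In the tumors labelled RAG1-/- the same 3 genes were higher than in MC38, where 15.8% of all genes were. Hist1h1c differed by 1.73 (SE 0.22, limma adjusted p = 1.1e-05), Hist1h2bc by 1.88 (SE 0.27, limma adjusted p = 3.9e-05) and Hist3h2a by 1.25 (SE 0.25, limma adjusted p = 0.00127). Hist1h4d (-1.50, SE 0.46, limma adjusted p = 0.0243) and Hist2h2ac (-1.09, SE 0.37, limma adjusted p = 0.0400) were lower, where 7.55% of all genes were, and the median of the 45 tested members was -0.71 against 0.058, and -0.23 in the 14 that share no 3′ sequence. Both contrasts use the same 2 MC38 libraries and 1 estimate of the spread, so they are not independent of each other.

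Hist1h4d had 4.02 and 15.3 normalized counts in skin, 64.2 and 70.4 in MC38, 12.8 to 30.0 in the tumors labelled RAG1-/- and 11.9 to 61.4 in wild-type tumors. Hist2h2ac had 42.8 and 47.9 in MC38, 17.7 to 26.7 in the tumors labelled RAG1-/- and 16.6 to 27.3 in wild-type tumors. Every tumor was below both MC38 libraries for these 2 genes. The calls of lower members were fragile: in wild-type tumors none was left without MC38 replicate 1, MC38 replicate 2, wild-type day 23 replicate 1 or 3, or wild-type day 46 replicate 3. In the tumors labelled RAG1-/- none was left without either MC38 library, and 1 without day 13 replicate 1, day 13 replicate 3 or day 23 replicate 3. The calls of Hist1h1c, Hist1h2bc and Hist3h2a were kept in each of these.

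Tumors hold host cells as well as MC38 cells. Macrophage markers summed to 42.8 to 66.5 normalized counts in MC38, with Adgre1 at 0, and to 9277 to 17028 in the tumors. Endothelial markers summed to 9.41 to 13.7 in MC38, with Kdr and Tek at 0, and to 305 to 866 in the tumors, and fibroblast markers to 4955 to 5649 and 13540 to 48183. The part of host cells in the rise of Hist1h2bc, Hist1h1c and Hist3h2a was not tested. Among the lists of related genes, no S-phase gene was higher in tumors than in MC38. In wild-type tumors, 8 of 23 S-phase genes and 5 of 12 chaperone genes were lower, against 9.61% of all genes. In the tumors labelled RAG1-/-, 2 of 23 and 1 of 12 were lower, which is near the 7.55% of all genes. H1f0 was higher in both (1.33, limma adjusted p = 0.00024, and 0.98, limma adjusted p = 0.00411), as was H3f3b (0.54, limma adjusted p = 0.0143, and 0.47, limma adjusted p = 0.0351). Cpsf2 and Srrt, of RNA processing, were lower in both.

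Wild-type tumors were also set against skin. Of 42 tested members, 16 were higher in the tumors and 5 lower (limma adjusted p under 0.05), where 22.8% of all genes were higher and 34.2% lower, and the medians were 1.36 for the members and -0.18 for all genes. In the 14 tested members that share no 3′ sequence the median was 0.49. Members could pass the filter through the 12 tumors alone, so these 42 are not the whole family. Hist3h2ba, with 10.7 and 8.92 normalized counts in skin, was not among them. Hist1h4i was higher by 2.50 (SE 0.29, limma adjusted p = 5.8e-06). Hist1h4b had a mean of 22.6 in the wild-type tumors, a ratio of 16.3 to the 2 reads of skin (95% exact counting interval 4.45 to 136, limma adjusted p = 0.000199). Hist1h2bk and Hist1h2bb, both H2B genes, had a single read in skin and 4.89 to 17.0 and 2.95 to 17.0 normalized counts in the wild-type tumors, which gave ratios of 15.2 (2.64 to 607) and 13.1 (2.26 to 524) with the same kind of interval. Hist1h2bk was not called without skin replicate 1, and Hist1h2bb without either skin library or by DESeq2. Hist2h2bb was higher by 2.58 (SE 0.70, limma adjusted p = 0.00602), but not without skin replicate 1 (adjusted p = 0.173).

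The 5 lower in wild-type tumors than in skin were Hist2h3c2 (-2.31, SE 0.53, limma adjusted p = 0.00177), Hist1h2be (-1.96, SE 0.65, limma adjusted p = 0.0178), Hist1h1c (-1.82, SE 0.23, limma adjusted p = 1.05e-05), Hist1h2bc (-1.79, SE 0.28, limma adjusted p = 8.8e-05) and Hist3h2a (-0.86, SE 0.26, limma adjusted p = 0.0119). All 5 are named above among those lower in MC38 than in skin, and the 2 contrasts share the skin libraries. Hist3h2a was not called without skin replicate 2 or after rescaling to the same total or upper quartile (highest adjusted p 0.218), and Hist1h2be without either skin library or with the upper quartile. Without skin replicate 1 the count of members higher was 10, and without skin replicate 2 the count lower was 3. Of the S-phase genes, 21 of 23 were higher in wild-type tumors than in skin (22.8% of all genes) and none lower (34.2%).

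Wild-type hosts and hosts without T and B cells were compared over 6 tumors each, with both days of each host pooled. The days were 23 and 46 in wild-type hosts and 13 and 23 in RAG1-/- hosts, so the hosts also differed in tumor day here. By limma none of 44 tested members was higher or lower with an adjusted p under 0.05, where 0.57% of all genes were higher and 0.142% lower. Only 1 member, Hist1h3g, had an unadjusted p under 0.05 in limma. That count was 7 without wild-type day 23 replicate 1, 6 without wild-type day 46 replicate 3, 3 without RAG1-/- day 23 replicate 3, 2 without RAG1-/- day 13 replicate 1, 0 or 1 without any other library, 3 in limma without the trend and 0 with the replicate block. Neither edgeR nor DESeq2 called a member in this comparison, and each gave 4 with an unadjusted p under 0.05. Of 14746 genes, edgeR called 88 higher and 23 lower, and DESeq2 called 195 higher and 90 lower. The median log2 fold change of the members was 0.15, against 0.0065 for all genes, and ranged from 0.028 without wild-type day 23 replicate 2 to 0.35 without wild-type day 46 replicate 3. No member had the 6 tumors of one kind all above the 6 of the other, where 0.651% of all genes were higher without overlap and 0.332% lower.

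Single members differed by unequal amounts, and none of the 20 compared had an exact permutation p under 0.05. Hist1h2bc had a mean of 793 normalized counts in wild-type tumors and 683 in the tumors labelled RAG1-/- (exact permutation p = 0.396), and Hist1h4i 683 and 548 (exact permutation p = 0.247). Hist1h1c had 450.4 and 369 (exact permutation p = 0.115) with 4 of the 6 wild-type tumors above all others, Hist1h4b 22.6 and 13.0 (exact permutation p = 0.0887) and Hist2h2bb 33.5 and 17.9 (exact permutation p = 0.186). These are two-sided unadjusted values from 20 members compared, with the unequal days of each host pooled. The smallest that 6 against 6 can give is 0.00216. T cell markers summed to 52.9 to 189.6 in wild-type tumors and to 1.11 to 19.1 in the tumors labelled RAG1-/-.

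At day 23 the hosts could be compared at the same age of the tumor. Again no member of 44 passed with limma, where 0.231% of all genes were higher in wild-type hosts and 0.0475% lower. In limma, 7 members had an unadjusted p under 0.05. That count was 2 without wild-type replicate 2 or 3, 5 without RAG1-/- replicate 1 or 2, and 9 without wild-type replicate 1. The share of all genes under that unadjusted level was not counted in any comparison, so such counts of members cannot be set against it. Of the 7, DESeq2 on the recovered reads called Hist1h4i (DESeq2 adjusted p = 0.0460), where it called 1.07% of all genes higher. No member was called by edgeR, which called 17 of 14746 genes higher and 5 lower. Hist1h4i had 553, 911 and 759 normalized counts in wild-type and 327, 402 and 443 in the tumors labelled RAG1-/-, with no overlap (log2 fold change 0.90, SE 0.26, limma adjusted p = 0.176). In all, 7 members (Hist1h4i, Hist2h2bb, Hist1h2ag, Hist1h4b, Hist2h3c2, Hist1h3g and Hist1h2bm) were higher without overlap, which is 15.9% of those tested, against 8.5% of all genes. None was lower without overlap, against 7.62% of all genes.

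With time, wild-type tumors of day 46 and day 23 did not differ by limma in any of 44 members, where 0% of all genes passed, and no member had an unadjusted p under 0.05 (1 without day 23 replicate 2 or day 46 replicate 1). Only Hist1h2af was higher at day 46 without overlap (7.02% of all genes) and none was lower (5.44%). The tumors labelled RAG1-/- of day 23 against day 13 gave no call either, where again 0% of all genes passed, and 5 members had an unadjusted p under 0.05 (2 without day 13 replicate 1, 3 without day 13 replicate 3 and 8 in limma without the trend). DESeq2 and edgeR called no member in these 2 comparisons and each gave 0 and 4 with an unadjusted p under 0.05. Of 14746 genes, edgeR called 0 in either direction in both. DESeq2 called 26 higher and 17 lower at day 46 in wild-type tumors, and 89 higher and 117 lower at day 23 in the tumors labelled RAG1-/-.

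Between day 13 and day 23 in the tumors labelled RAG1-/-, Hist1h4i went from 826, 612 and 678 to 327, 402 and 443 (log2 fold change -0.85, SE 0.26, limma adjusted p = 0.251). It was among 6 members that were lower at day 23 without overlap (9.92% of all genes were), with Hist2h2bb, Hist1h2ag, Hist1h4b, Hist1h2ab and Hist1h2bj. The 2 members that were higher without overlap (9.48% of all genes) were the linker genes Hist1h1e, with 54.6, 83.4 and 22.9 at day 13 and 111, 104 and 85.3 at day 23, and Hist1h1d. The contrast shares the day 23 tumors with the comparison of hosts above, and 4 of its 6 lower members are named there too. The day 13 tumors also differed in skeletal muscle markers, which summed to 277 to 7214 there and to 22.1 to 55.0 at day 23, and the part of that tissue in these values was not tested.

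Outside the family and these lists, the genes whose levels ran most like the summed histone genes over the 16 libraries were Crabp2 (Pearson r = 0.923), Prrg2 (0.922), Krba1 (0.919), Ptdss2 (0.915) and Wnt10a (0.915), all on the scale log2(normalized count + 1). All 5 were highest in skin, for example Crabp2 with means of 1099 in skin, 4.83 in MC38 and 18.3 in the tumors. The sum is led by few members: in the 2 skin libraries Hist1h2bc took 48.9% and 46.3% of the reads on the family, and Hist1h1c 31.1% and 25.4%. Without the 4 most abundant genes the sum ran the other way, with means of 618 in skin and 1299 in MC38. The libraries share their groups, so these correlations are a description with no test.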

How the data were processed

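RNA of MC38 cells, skin and tumors was profiled with QuantSeq 3′ libraries on an Ion Proton. The authors trimmed reads with Cutadapt and Trimmomatic (those under 22 bases removed), aligned them to mm10 with STAR, then Bowtie2, counted them with HTSeq and divided the counts by DESeq2 size factors. These normalized counts are the signal the authors deposited. Versions, annotation and strand setting are not given in the sources used here. All values (100%, tolerance 0.001) were whole multiples of 1 read, so reads were recovered. Same-group libraries were not copies (chi-square per degree of freedom 9.03 to 96.3).

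Limma 3.58.1 in R 4.3.3, with a mean-dependent trend, tested log2(normalized count + 1), a scale that understates changes of low genes, keeping genes that averaged 5 or more in the fit. Tests were two-sided, adjusted after Benjamini-Hochberg over all genes tested, with a threshold of 0.05. MC38 and skin were fitted alone, and other contrasts with all 12 tumors. P-values measure the spread between these samples, which may be technical for MC38. Single members were compared by exact permutation (scipy 1.17.1). Alternatives included edgeR 4.0.16 and DESeq2 1.42.0 on recovered reads, other pseudocounts, filters and scalings, a replicate block and each library left out. The limma step was tested on simulated data. Named in full were the 10 members with the highest mean and up to 5 per direction and contrast with the largest called change. Hairpins, ends and overlaps came from GENCODE transcripts, promoters from RefSeq. Members and lists were chosen with earlier results of these data known. The 6 tumors of an antibody experiment were not analysed here, since 6 columns match no label.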

Additional observations from a re-analysis of the deposited data

How the results depend on the processing

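Of 28 counts and shares, 294 values under other settings stayed near the reported one and 42 moved. Of 44 results on single members, 678 values kept direction and call, 81 lost the call, 1 gained it and 3 changed sign. For MC38 against skin the count of higher members was 4 without members that share 3′ sequence, 9 with a mean of at least 20 and 13 with DESeq2 (21.3% of all genes), and 6 to 14 with each library left out, and the count of lower members was 4 at the same upper quartile and 3 to 5 with a library left out. Lower members in wild-type tumors against MC38 numbered 1 without members that share 3′ sequence, 5 at the same upper quartile, 0 with no filter, 0 with all 16 libraries in the fit, and 0 to 4 with a library left out. In the tumors labelled RAG1-/- they numbered 1 without sharing members, 1 with no filter, 1 with a mean of at least 20, 0 with all 16 libraries, and 0 to 2 with a library left out. Wild-type tumors against skin gave 3 higher without sharing members, 8 higher and 3 lower with a mean of at least 20, 3 lower at the same upper quartile, and 10 to 19 higher and 3 to 6 lower with a library left out. DESeq2 called 1 member higher in wild-type than in RAG1-/- tumors of day 23. A stricter filter or the removal of sharing members leaves fewer members to test, and the cause of the other moves was not tested. Where a library was left out of a pair, the lone one was assumed to vary like the other groups.

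Rescaling to the same upper quartile moved the median of all genes by 0.67 between MC38 and skin and by 0.47 between wild-type tumors and skin, and the share of called members that were higher went from 76.7% to 88.2% and from 76.2% to 88.0%. Against MC38 the same rescaling took it from 50% to 37.5% in wild-type tumors and from 60% to 50% in the tumors labelled RAG1-/-. Hist1h4i in wild-type tumors against MC38, 0.084 in the main test, changed sign at the same upper quartile (-0.088) and ranged from -0.0069 to 0.25 with a library left out, and between day 46 and day 23 it ranged from -0.48 to 0.048. Without Hist1h2bc the share of reads was 0.0194% in skin, 0.0191% in MC38, 0.0208% and 0.0157% in RAG1-/- tumors of day 13 and day 23 and 0.0220% and 0.0197% in wild-type tumors of day 23 and day 46.

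Tumors that share a replicate number are different mice, and their deviations from the group means correlated at -0.22 to 0.19 (18 pairs, 4 over 0.1), so the numbers pair no samples. With the replicate block, lower members numbered 0 in wild-type tumors and 0 in the tumors labelled RAG1-/- against MC38, and no other count of members with an adjusted p under 0.05 moved by over 1.5 times. Members with an unadjusted p under 0.05 went from 9 to 5 in the tumors labelled RAG1-/- against MC38 and from 1 to 0 between the hosts. Of the 70 members, 54 had a mean under 20 normalized counts and only 43 had a mean of at least 5. Many thus stood a few reads above the floor of 3, or at or below it, which limits what these depths can show for them.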
